A study of Mauremys reevesii with 3 samples.

Results

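MicroRNAs (miRNAs) are short RNAs that guide repression of messenger RNAs. The striated muscle miRNAs miR-1, miR-133 and miR-206 were taken from a small RNA table of turtle embryos by name. All rows called miR-1, miR-133 or miR-206 in any species were included, with any letter, copy number or arm, which gave 36 of the table's 1743 rows. The embryos were those of Mauremys reevesii, the Chinese pond turtle, in which egg temperature decides the sex. Eggs of 1 purchase were allocated at random to incubators at 26, 29 or 32 °C and opened at Greenbaum stage 16, and the adrenal-kidney-gonad complex was dissected. At each temperature, 3 biological samples were combined as RNA and sequenced as 1 small RNA library. Nothing but the incubation temperature separates the groups in the labels, and the labels give no strain, age in days or sex of the embryos. With 1 pooled library per temperature there is no replicate check and no test across temperatures. The intervals below are 95% exact intervals that cover counting error only. Reads were not counted by molecular identifiers, so even the counting error may be understated.

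In vertebrates miR-1 and miR-133a are processed from shared transcripts that heart and skeletal muscle make in large amounts, while miR-206 and miR-133b come from another shared transcript that is particular to skeletal muscle. In mouse myoblasts, the precursors of muscle fibres, miR-1 and miR-206 favour differentiation and miR-133 favours proliferation. The labelled tissue names adrenal, kidney and gonad and no striated muscle.

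The sequences below show which rows could be told apart, and the prefix of each name is the species of the reference sequence, not of the animal. Capitals mark bases 2 to 8 from the 5′ end, the seed that pairs with target messenger RNAs.
mdo-miR-206 (opossum): uGGAAUGUaaggaagugugug
gga-miR-1b-3p (chicken): uGGAAUGUuaagaaguaugua
pma-miR-1b (sea lamprey): uGGAAUGUaaagaaguaugggu
tgu-miR-133-3p (zebra finch): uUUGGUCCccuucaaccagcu
dme-miR-133-3p (fruit fly): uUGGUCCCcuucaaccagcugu
dre-miR-133a-2-5p (zebrafish, opposite arm of the hairpin): aGCUGGUAaaauggaaccaaa
oan-miR-206-5p (platypus, opposite arm of the hairpin): aCAUGCUUcuuuauaucccca

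The miR-206 row and both miR-1 rows shown had the same seed, GGAAUGU. It was present in 14 named rows of the table, all of them members. Over bases 1 to 19, counted from the 5′ end, pma-miR-1b and mdo-miR-206 differed at 2 positions, A11G and A17G. The rows pma-miR-1b and gga-miR-1b-3p differed at 1 position, A9U. The dme-miR-133-3p row starts 1 base further into the molecule than tgu-miR-133-3p, so its capitals are shifted against the seed UUGGUCC of tgu-miR-133-3p. Both miR-133 rows had the same counts.

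The 36 rows stood for few molecules. There were 14 rows of miR-1, 19 of miR-133 and 3 of miR-206, from 22 species prefixes. Rows with a run of at least 16 bases in common, on either strand, were placed in 1 sequence group, which gave 6 groups for the members and 973 for the whole table. Each group is given below by its most counted row. The miR-206-3p group held 2 rows with equal counts, the miR-133-3p group 16 rows, the miR-133-5p group 3 and the miR-206-5p group 1. The miR-1 rows formed a miR-1-3p group of 11 rows and a miR-1b-3p group of 3. In all, 20 of the 36 rows and 4 of the 6 groups reached 10 counts in at least 1 library, the minimum for a comparison. The miR-1-3p and miR-206-5p groups did not.

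**Figure D1:**
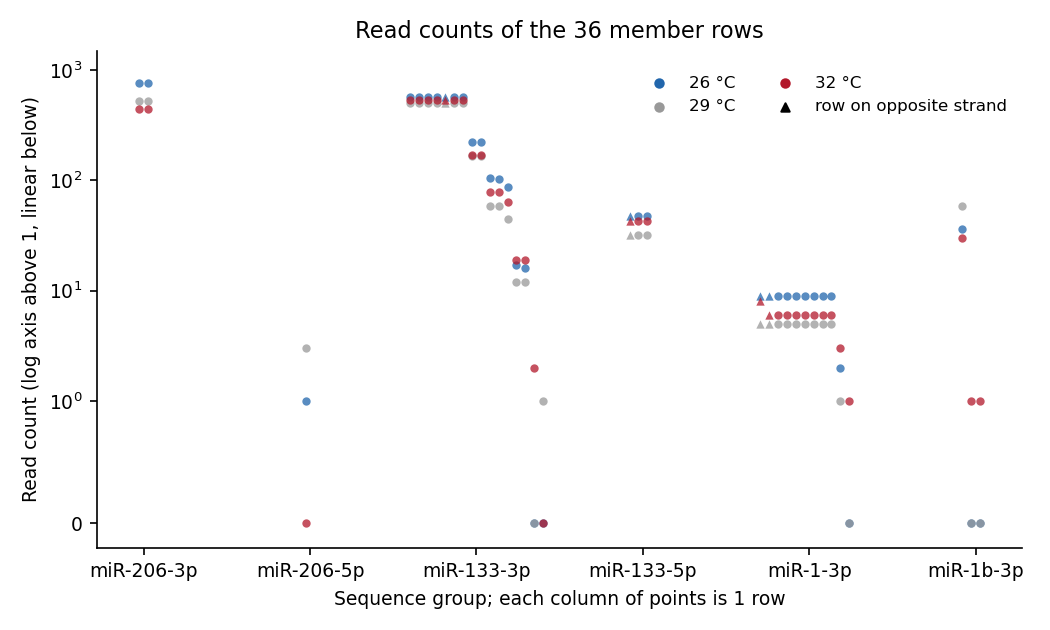
Read counts of the 36 member rows by sequence group, on an axis that is logarithmic above 1 and linear below. Each column of points is 1 row and colours are the temperatures. The rows of miR-133-3p spread from 573 counts down to 0, while the 2 rows of miR-206-3p coincide.

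Library depth was similar, with table totals between 9348882 and 9624436 counts, and 1 count corresponded to 0.104 to 0.107 CPM, the count scaled to an equal table total per library. Since several rows can hold the same read, the table totals exceed the number of reads. The marker miRNAs of the labelled tissue were present, with 25229 to 38237 counts of the kidney miRNA miR-192 (ola-miR-192-5p) and 3140 to 9800 of the gonad miRNA miR-202 (mmu-miR-202-5p). The median log2 ratio of the 371 sequence groups with enough counts was -0.23 for 32 over 26 °C on the table total. With trimmed-mean (TMM) factors that median was -0.02, a shift of 0.21 against which small ratios have to be read. The corresponding shift was 0.20 for 32 over 29 °C and 0.02 for 29 over 26 °C.

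miR-206, which in mammals and birds is found mainly in skeletal muscle, had its highest count in the coolest library and its lowest in the warmest. The mdo-miR-206 row had 766, 528 and 440 counts in the 26, 29 and 32 °C libraries. These were levels of 81.9 CPM (76.2 to 87.9), 54.9 CPM (50.3 to 59.7) and 45.8 CPM (41.6 to 50.3). The interval at 26 °C lay above both others, and those at 29 and 32 °C bordered on each other. The log2 ratio was -0.58 (-0.74 to -0.42) for 29 over 26 °C, -0.84 (-1.01 to -0.67) for 32 over 26 °C and -0.26 (-0.45 to -0.08) for 32 over 29 °C. Each interval left out equality, and none of the ratios reached 2-fold. With TMM factors the value for 32 over 26 °C was -0.63 (-0.80 to -0.45). With the same factors the value for 32 over 29 °C was -0.06 (-0.25 to 0.12), which included equality, as did -0.11 (-0.30 to 0.08) with DESeq2 size factors. In bulk tissue, fewer cells of a type and less RNA per cell cannot be told apart.

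Several sequence groups had lower ratios than miR-206-3p. Of the 209 tested groups with at least 100 counts over the libraries, predicted entries included, 26 had a lower ratio for 29 over 26 °C and 36 a lower ratio for 32 over 26 °C. By count, 67, 76 and 75 sequence groups stood above it at 26, 29 and 32 °C. It held 0.0258%, 0.0174% and 0.0147% of the summed counts of the most counted rows at 26, 29 and 32 °C. The opposite arm, oan-miR-206-5p, had 1, 3 and 0 counts. The 0 at 32 °C has an exact upper limit of 0.384 CPM. A change of the arm ratio was therefore not detectable at this depth, and its share of both arms was 0.130% at 26 °C (0.00330% to 0.724%).

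**Figure D2:**
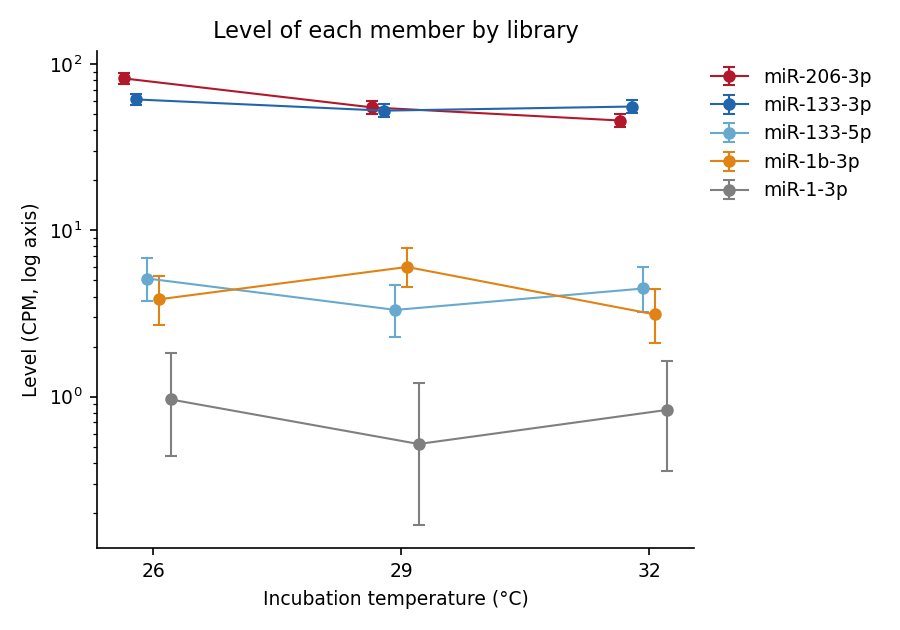
Level of 5 member groups by incubation temperature, in CPM on a logarithmic axis, with 95% exact Poisson intervals. miR-206-3p lies above miR-133-3p at 26 °C (81.9 against 61.3 CPM) and below it at 32 °C (45.8 against 55.5 CPM). The miR-1-3p group is plotted by its most counted row, mmu-miR-1b-5p, which reads on the opposite strand. miR-206-5p, with 0 to 3 counts, is left out.

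miR-133-3p, the dominant strand of miR-133 in muscle, differed less between the libraries. The dme-miR-133-3p row had 573, 505 and 534 counts in the 26, 29 and 32 °C libraries, or 61.3 CPM (56.4 to 66.5), 52.5 CPM (48.0 to 57.3) and 55.5 CPM (50.9 to 60.5). The 3 intervals overlapped. The log2 ratio was -0.22 (-0.40 to -0.05) for 29 over 26 °C. It was -0.14 (-0.31 to 0.03) for 32 over 26 °C and 0.08 (-0.10 to 0.26) for 32 over 29 °C. The sign for 32 over 26 °C depended on the scaling, with 0.07 (-0.10 to 0.24) under TMM factors and 0.02 (-0.15 to 0.19) under DESeq2 size factors. Under TMM factors the value for 32 over 29 °C was 0.28 (0.10 to 0.46), and under DESeq2 size factors 0.23 (0.06 to 0.41). Both of these intervals left out equality.

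The opposite arm was far rarer in every library. The dre-miR-133a-2-5p row had 48, 32 and 43 counts at 26, 29 and 32 °C. The 3p strand was counted 11.9 times as often at 26 °C (8.88 to 16.4), 15.8 times at 29 °C (11.0 to 23.3) and 12.4 times at 32 °C (9.09 to 17.4). The log2 odds ratio of the 5p to the 3p strand was -0.40 (-1.12 to 0.30) for 29 over 26 °C and -0.06 (-0.71 to 0.59) for 32 over 26 °C. For 32 over 29 °C it was 0.35 (-0.37 to 1.08). All 3 intervals included equality and were wide, so a difference in strand use was not detectable at this depth.

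The balance of miR-206 against miR-133 is a ratio within each library and does not depend on the scaling between libraries. There were 1.34 counts of miR-206-3p per count of miR-133-3p at 26 °C (1.20 to 1.49), 1.05 at 29 °C (0.924 to 1.18) and 0.824 at 32 °C (0.725 to 0.937). By these most counted rows the order of the pair was opposite in the coolest and the warmest library, and at 29 °C the pair could not be ordered. The gga-miR-133c-3p row of the same group, with 223, 168 and 171 counts, lay below mdo-miR-206 in every library. The order therefore holds for the rows compared and does not rank numbers of molecules. The log2 odds ratio, by Fisher's conditional estimate, was -0.70 (-0.94 to -0.45) for 32 over 26 °C. It was -0.35 (-0.59 to -0.11) for 29 over 26 °C and -0.34 (-0.60 to -0.08) for 32 over 29 °C. Each of these intervals left out equality, and by these most counted rows the ratio was lower in each warmer library. Against the gga-miR-133b row of the same group the ratio was highest at 29 °C, at 9.10. There it was 7.30 at 26 °C and 5.64 at 32 °C.

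**Figure D3:**
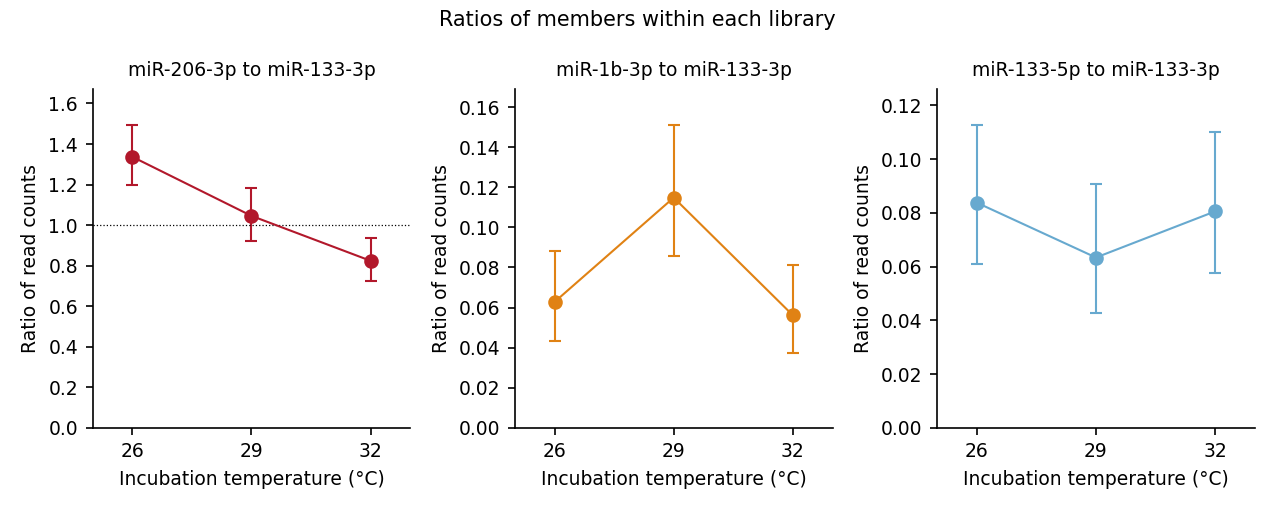
Ratio of read counts between member groups within each library, with 95% exact conditional intervals, against incubation temperature. Every axis starts at 0 and the dotted line marks equal counts. The miR-206-3p to miR-133-3p ratio goes from 1.34 at 26 °C to 0.824 at 32 °C, while the miR-1b-3p to miR-133-3p ratio is highest at 29 °C.

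The miR-133-3p rows fell into sets with different counts, although many differ only at the 3′ end. The sequences below share their leading 19 bases, and capitals mark the bases after them.
dme-miR-133-3p (fruit fly): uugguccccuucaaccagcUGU
cin-miR-133-3p (sea squirt): uugguccccuucaaccagcUG
gga-miR-133c-3p (chicken): uugguccccuucaaccagcUGC
gga-miR-133b (chicken): uugguccccuucaaccagcUA
pma-miR-133a (sea lamprey): uugguccccuucaaccagcUUG
xtr-miR-133d (clawed frog): uugguccccuucaaccagcCGC

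The dme-miR-133-3p row and 6 others lay within 1 count of each other in every library. The cin-miR-133-3p row, a shorter version of the same letters, had 223, 168 and 170 counts at 26, 29 and 32 °C, and gga-miR-133c-3p had 223, 168 and 171. The counts did not follow the last letters alone, since mmu-miR-133a-3p ends in the same letters as cin-miR-133-3p and had 573, 505 and 534. The gga-miR-133b row, which ends in the letters of miR-133b, had 105, 58 and 78. These counts of gga-miR-133b came to 18.3%, 11.5% and 14.6% of the dme-miR-133-3p row. The xtr-miR-133d row had 16, 12 and 19 counts. Reads that end before the last letters could be counted in several of these rows, and the treatment of such reads is not given in the sources used here. A row's count is therefore not the number of molecules of that paralog.

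The rows ending like miR-133b gave a larger difference at 29 °C than the main row. The log2 ratio of gga-miR-133b was -0.90 (-1.39 to -0.42) for 29 over 26 °C and -0.47 (-0.91 to -0.03) for 32 over 26 °C. With TMM factors the latter was -0.25 (-0.70 to 0.18), which included equality. The pma-miR-133a row, with 88, 45 and 64 counts, was the only member row past 2-fold in any pair, at -1.01 (-1.56 to -0.48) for 29 over 26 °C. It was named after its values were seen and shares 20 of its letters with the main row's group, whose value was -0.22. miR-206 and the row named after miR-133b, which shares its transcript in other vertebrates, did not follow the same order. Whether they share a transcript in this turtle was not checked. There were 7.30 counts of mdo-miR-206 per count of gga-miR-133b at 26 °C (5.94 to 9.03), 9.10 at 29 °C (6.93 to 12.2) and 5.64 at 32 °C (4.43 to 7.27). The log2 odds ratio was 0.32 (-0.19 to 0.84) for 29 over 26 °C and -0.37 (-0.84 to 0.11) for 32 over 26 °C, both with equality inside. For 32 over 29 °C it was -0.69 (-1.24 to -0.15).

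Among the miR-1 rows listed, miR-1b-3p was the most counted form and had its highest count at 29 °C. The gga-miR-1b-3p row had 36, 58 and 30 counts in the 26, 29 and 32 °C libraries, or 3.85 CPM (2.70 to 5.33), 6.03 CPM (4.58 to 7.79) and 3.12 CPM (2.11 to 4.45). The interval at 29 °C overlapped that at 26 °C and lay just above that at 32 °C. The log2 ratio was 0.65 (0.02 to 1.29) for 29 over 26 °C, -0.95 (-1.64 to -0.29) for 32 over 29 °C and -0.30 (-1.05 to 0.44) for 32 over 26 °C. Its ratio to miR-133-3p was 0.0628 (0.0436 to 0.0880) at 26 °C, 0.115 (0.0860 to 0.151) at 29 °C and 0.0562 (0.0375 to 0.0812) at 32 °C. The log2 odds ratio of these ratios was 0.87 (0.22 to 1.54) for 29 over 26 °C and -1.03 (-1.74 to -0.34) for 32 over 29 °C. Against miR-206-3p it was 1.22 (0.58 to 1.89) for 29 over 26 °C. For 32 over 26 °C it was 0.54 (-0.23 to 1.30) and for 32 over 29 °C -0.69 (-1.40 to 0.0013), and both of these intervals included equality. Next to it in level was miR-133-5p, with 0.750 counts of miR-1b-3p per count of it at 26 °C (0.473 to 1.18), 1.81 at 29 °C (1.16 to 2.88) and 0.698 at 32 °C (0.423 to 1.14). Only at 29 °C did this interval leave out equality, and there miR-1b-3p was the higher.

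The listed rows of miR-1 without the A9U change had few counts. The pma-miR-1b row had 9, 5 and 6 counts at 26, 29 and 32 °C, and it was 1 of 7 rows, from 7 species, with these same counts on that strand. The row rno-miR-1-3p had 2, 1 and 3. The most counted row of the miR-1-3p group, mmu-miR-1b-5p, had 9, 5 and 8 counts and reads on the strand opposite to miR-1-3p. Per count of mmu-miR-1b-5p there were 4.0 counts of miR-1b-3p at 26 °C (1.89 to 9.44). There were 11.6 at 29 °C (4.70 to 37.1) and 3.75 at 32 °C (1.68 to 9.47). The ratio at 32 °C is higher against pma-miR-1b, with its 6 counts in place of 8. miR-133-3p had 63.7 counts per count of mmu-miR-1b-5p at 26 °C (33.3 to 139.9). These are levels of the rows listed, and other forms of miR-1, such as further bird or mammal reference rows, were not analysed here. They are therefore not the total level of miR-1.

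Of the 4 member rows on the opposite strand, 3 lay within 1 count, in each library, of a row they pair with. The other, mmu-miR-1b-5p, had 8 counts at 32 °C against 6 of pma-miR-1b. The sequences of the examples below are the reverse complement, in whole or in large part, of a 3p row shown above.
rno-miR-133c (rat): cAGCUGGUugaaggggaccaa
bmo-miR-1b-5p (silkworm): cCAUACUUcuuuacauuccaua

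The rno-miR-133c row had 573, 504 and 534 counts at 26, 29 and 32 °C, within 1 of dme-miR-133-3p in each library, and all of its 21 bases pair with that row. The bmo-miR-1b-5p row had 9, 5 and 6 counts, as did pma-miR-1b, and 20 of its 22 bases pair with it in 1 stretch. These counts give no separate value for a 5p arm of miR-1.

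Read against the whole table, the members did not stand out by the number past 2-fold. A sequence group was called apart when its ratio was at least 2-fold and its interval left out equality. For 29 over 26 °C, 0 of the 4 member groups were apart, beside 15.1% of 371 sequence groups, and by row 1 of 20 was, beside 10.8% of 812 rows. For 32 over 26 °C, 0 of the 4 groups and 0 of the 20 rows were apart, beside 25.3% of groups and 17.7% of 814 rows. For 32 over 29 °C the counts were again 0 of 4 and 0 of 20, beside 18.3% and 12.4% of 807 rows. The interval left out equality, whatever the fold, in 3 of 4 member groups for 29 over 26 °C, beside 45.6% of all groups. It did so in 1 of 4 for 32 over 26 °C, beside 51.8%, and in 2 of 4 for 32 over 29 °C, beside 45%. The median log2 ratio of the 4 groups was -0.40, -0.25 and -0.09 in these 3 pairs, where all groups had -0.03, -0.23 and -0.21. For 29 over 26 °C, miR-1b-3p was above 0 and the other 3 groups were below 0. The 3 pairs share libraries and are not independent.

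**Figure D4:**
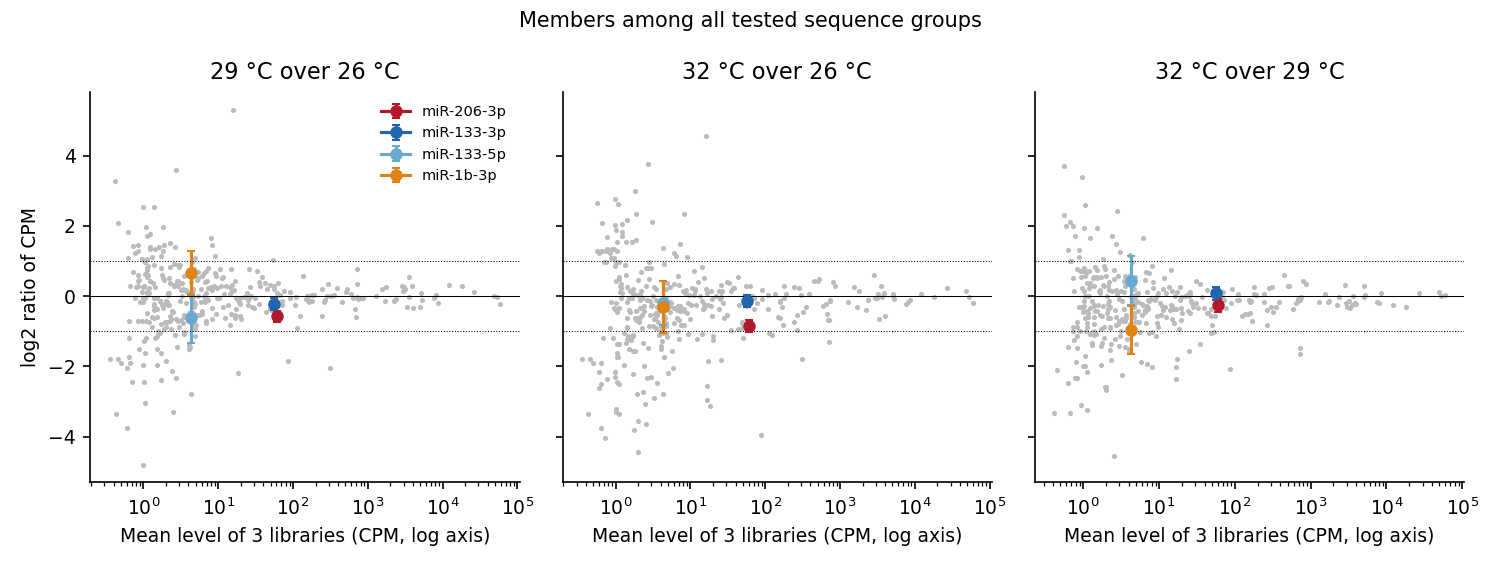
Log2 ratio of CPM for each pair of libraries against the mean level, for all tested sequence groups (grey) and 4 member groups with 95% exact conditional intervals. Dotted lines mark 2-fold. No member estimate lies beyond them, and miR-206-3p is the lowest member for 32 over 26 °C at -0.84.

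Other miRNAs of striated muscle were nearly absent from the rows analysed here. miR-499, encoded in a myosin gene and expressed in heart and slow muscle, had at most 2, 0 and 1 counts at 26, 29 and 32 °C (hsa-miR-499a-5p). miR-378, which is abundant in adult muscle and other tissues with high metabolism, had at most 7, 5 and 0 (hsa-miR-378c). No row of miR-208 or miR-486 was analysed here. The list therefore had 0 groups with enough counts for a ratio, and its summed level was 0.963, 0.520 and 0.104 CPM at 26, 29 and 32 °C.

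The miRNAs known to act in myoblasts but widely expressed elsewhere (miR-24, miR-26, miR-27, miR-29, miR-181, miR-214, miR-221 and miR-222) had 20 sequence groups with enough counts. Of these, 1 was at least 2-fold higher and 0 lower for 29 over 26 °C, where 5.93% of all groups were higher and 9.16% lower. For 32 over 26 °C, 0 were higher and 2 lower, beside 6.47% and 18.9%. The median log2 ratio of the 20 groups was -0.01 and -0.04 in these pairs. Over the whole table, higher groups were 25.5% of those apart for 32 over 26 °C on the table total and 37.2% with TMM factors. miR-221 and miR-222, which restrain differentiation in cultured mouse myoblasts, had log2 ratios of 0.29 (0.25 to 0.34, hsa-miR-221-3p) and 0.39 (0.35 to 0.44, gga-miR-222a) for 32 over 26 °C. These are the most counted strands, and the opposite strands stood at 0.24 for mdo-miR-221-5p and -0.36 for aca-miR-222a-5p. Of the others, hsa-miR-24-3p stood at 0.26, gga-miR-29a-3p at 0.20, cgr-miR-214-3p at 0.03, aca-miR-26-5p at -0.04, efu-miR-27b at -0.05 and gga-miR-181b-5p at -0.18. TMM factors add 0.21 to every ratio of this pair, which turns the last 3 positive. Less counted sequence groups of these miRNAs went both ways on the table total. They included chi-miR-24-5p at -1.27, hsa-miR-181b-2-3p at -1.07, hsa-miR-181b-3p at -0.91, mmu-miR-181a-5p at 0.15 and hsa-miR-214-5p at 0.08.

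Markers of other tissues moved between the same libraries, and their part in the miR-206 difference was not tested. Kidney miR-192 (ola-miR-192-5p) had the same order as miR-206, with log2 ratios of -0.31 for 29 over 26 °C and -0.64 for 32 over 26 °C. On the table total, other well-counted kidney rows had the same order and differed less. The values were -0.08 and -0.11 for mmu-miR-194-5p, and -0.12 (-0.28 to 0.04) and -0.35 (-0.52 to -0.18) for hsa-miR-215-5p. For 32 over 29 °C mmu-miR-194-5p stood at -0.03 (-0.08 to 0.02), which included equality. Its -0.11 for 32 over 26 °C is smaller in size than the TMM shift of 0.21, so its order depended on the scaling. The hsa-miR-215-5p row was not the most counted of its sequence group and is not in the list sum below. It may share reads with other rows of that group. The rare xtr-miR-215 row, with 17, 25 and 11 counts, was highest at 29 °C, at 0.51 and -0.67. The summed level of the kidney list (miR-192, miR-194 and miR-215) was 4867, 4039 and 3345 CPM at 26, 29 and 32 °C and was mostly miR-192. The liver list (miR-122) stood at 608, 147 and 175 CPM and the gonad list (miR-202) at 813, 1032 and 330 CPM. The pancreas miRNA miR-217, added after its values were seen, also had the order of miR-206 on the table total. The tgu-miR-217-5p row had 1567, 855 and 785 counts and log2 ratios of -0.92 and -1.04. Its value for 32 over 29 °C was -0.12. That is smaller in size than the TMM shift of 0.20 for this pair, so this step depended on the scaling. The smooth muscle and mesenchyme list (miR-143, miR-145, miR-199 and miR-214) stood at 29011, 34606 and 29075 CPM, a sum mostly of ola-miR-143. Like miR-1b-3p this sum was highest at 29 °C. Not every row of the list was, since hsa-miR-145-3p had 1936, 1819 and 1117 counts at 26, 29 and 32 °C. Of the 13 groups of the list, 0 were past 2-fold in any pair. The shares of all 371 groups were 15.1%, 25.3% and 18.3% for 29 over 26, 32 over 26 and 32 over 29 °C. The blood cell list (miR-451, miR-144, miR-223 and miR-142) was also highest at 29 °C, at 62.8, 118 and 56.5 CPM, a sum mostly of hsa-miR-223-3p. Rare members of the list went both ways at 29 °C. The red-cell row hsa-miR-451a was lowest there, with 44, 9 and 25 counts. The dre-miR-144-5p row was highest there, with 5, 11 and 2. The endothelium list (miR-126) stood at 8703, 8844 and 7695 CPM and the neuron list at 6.42, 13.5 and 15.3 CPM. The neuron list rests on miR-137, since no miR-124 row was analysed here and miR-9 had at most 2 counts.

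**Figure D5:**
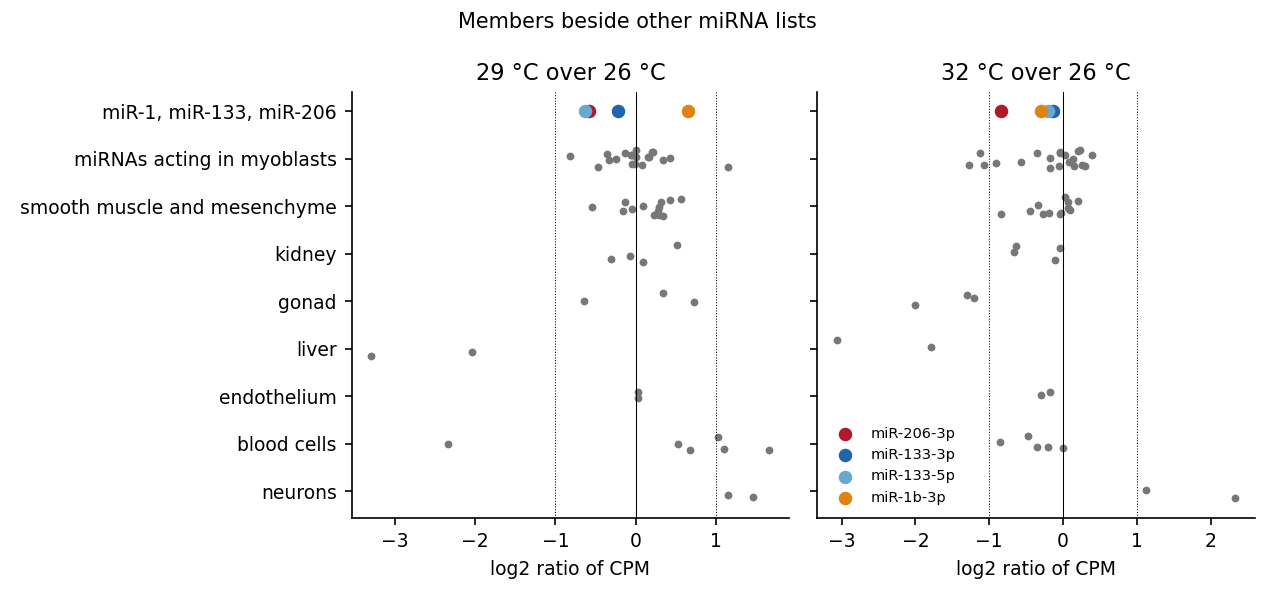
Log2 ratio of CPM to the 26 °C library for the 4 member groups (coloured) and for each sequence group of the other lists with at least 10 counts (grey, spread vertically for visibility). Dotted lines mark 2-fold. miR-206-3p lies at -0.58 and -0.84, and the myoblast list spans -1.27 to 0.39 in the right panel.

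The named miRNAs whose pattern lay nearest to that of each member were found from both log2 ratios to 26 °C, among 136 other named sequence groups with at least 100 counts. Nearness is described over 3 libraries and says nothing of shared function. For miR-206-3p the nearest was mmu-miR-34c-3p, at a distance of 0.08 on the log2 scale. That row had 724, 488 and 437 counts in order of temperature. It was followed by ssa-miR-454-5p at 0.12, cgr-miR-1260 at 0.12, xtr-miR-92b at 0.16 and hsa-miR-4286 at 0.21. For miR-133-3p the nearest were hsa-miR-148a-3p at 0.04, rno-miR-148b-3p at 0.04 and gga-let-7a-2-3p at 0.05. For miR-133-5p they were hsa-miR-3653-3p at 0.12, bta-miR-30f at 0.25 and mmu-miR-199b-5p at 0.26. For miR-1b-3p they were sha-miR-21 at 0.13, gga-miR-142-5p at 0.16 and aca-miR-142-3p at 0.17. No member was among the nearest of another member.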

How the data were processed

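Small RNA was sequenced from 1 pooled library per incubation temperature (26, 29 and 32 °C). The deposited table gives raw read counts per row and, per the file headers, TPM, which equalled the count over the column total times 1 constant within 0.01% in all 1743 rows. FastQC and Bowtie are named in the submitters' processing notes. Bowtie's version and settings, the genome build, the set of reference miRNAs and the handling of reads that match several rows are not given in the sources used here, and coordinates are left out.

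Ratios used counts over table totals with 95% exact conditional (Clopper-Pearson) intervals. Rows needed at least 10 counts in either library. Odds ratios were Fisher's conditional estimates. Rows tied in count were represented by mdo-miR-206 or dme-miR-133-3p where present, and otherwise by a row named with its arm where possible. A count of 0 was replaced by 3 counts in ratio estimates over all groups, but not in their intervals. No p-values are given with 1 library per temperature. The members and lists were chosen with earlier results of these data known. Named miRNAs were all member groups, the nearest patterns (5 for miR-206-3p and 3 for other groups with at least 100 counts) and the most counted row of each listed miRNA.

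Alternatives included the TMM scaling from edgeR 4.0.16, DESeq2 1.42.0 size factors, other totals, deposited TPM, summed rows, CPM plus 1, other count minimums and other grouping of rows. Python 3.11.15, scipy 1.17.1 and R 4.3.3 were used. Simulated counts, drawn as independent Poisson counts, were used to test the calls. The intervals assume the same counting error, so the simulation leaves out variation between embryos, pools and library preparations. Its results check the call step and are not error rates of the calls in these libraries. In the simulation of 32 over 26 °C, 95 of the 100 rows with a 4-fold difference were called, as were 83 of the 100 with a 2.5-fold one and 7 of 607 tested rows with none. For 29 over 26 °C these were 94, 90 and 12 of 611, and for 32 over 29 °C 98, 90 and 14 of 611. The simulated tables had 803, 810 and 811 rows with enough counts, and some changed rows fell short of the minimum.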

Additional observations from a re-analysis of the deposited data

How the results depend on the processing

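No paired analysis was possible because only 1 library was made per temperature, which also means that none could be left out. With TMM factors the log2 ratio of miR-206-3p was -0.63 for 32 over 26 °C and -0.064 for 32 over 29 °C, and that of miR-133-3p 0.072 and 0.28, outside the main intervals, because these factors scale the 32 °C library up against the others. Under each other alternative run (DESeq2 size factors, a total that omits the most abundant row, the sequence-group total, deposited TPM, summed rows and CPM plus 1) the ratios of the 4 compared member groups stayed inside their main intervals. So did the odds ratios among them with summed rows. Rows called apart went from 88 for 29 over 26 °C to 35 with at least 50 counts, 56 by sequence group, 36 among named miRNAs and 30 with the whole interval beyond 2-fold. For 32 over 26 °C they went from 144 to 70, 94, 64 and 54 under the same settings, and for 32 over 29 °C from 100 to 33 with at least 50 counts, 44 among named miRNAs and 23 with the whole interval beyond 2-fold. Fewer rows enter these settings or the call is stricter. The members formed 6 sequence groups in the main grouping and 9 when 18 shared bases were needed or rows were joined on the same strand only. Counts of 10 or fewer limit miR-1-3p and miR-206-5p, for which no ratio between libraries is given.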

Other observations

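The rat row rno-miR-3571, which is no member by name, had 2, 1 and 3 counts at 26, 29 and 32 °C. These are the counts of rno-miR-1-3p in every library, and its sequence lies in the miR-1-3p sequence group on the opposite strand.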
